A study of Rattus norvegicus with 6 samples.

Results

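The genes described here carry peptides from the proteasome to the cell surface on major histocompatibility complex (MHC) class I molecules. There are 10 of them, taken by symbol. They are the class I light chain *B2m*, the peptide transporter chains *Tap1* and *Tap2*, the peptide editor *Tapbp*, the trimming peptidase *Erap1*, the immunoproteasome catalytic subunits *Psmb8*, *Psmb9* and *Psmb10*, the class I transactivator *Nlrc5*, and *Cd74*, the invariant chain of class II. Of the 10, 9 were among the 17315 rows of the tables, and 8 were among the 10331 genes that had a mean TPM of 1 or more and were tested. TPM is transcript abundance per length, scaled to the same total in every sample. *Nlrc5* was not analysed here. *Cd74* was listed at 0 TPM in 5 samples and at 0.17 TPM in siDerl1 2, and was not tested.

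Poly(A) RNA was sequenced from HCN cells, a cloned line of adult neural stem cells (NSCs) from the hippocampus of Fisher 344 rats. Cells were reverse transfected with a Stealth control duplex (siControl) or with 1 Stealth duplex against *Derl1* (siDerl1), and every sample of both groups was then brought towards quiescence with BMP4, in the presence of bFGF, for 2 days. Each of the 2 groups had 3 samples, numbered 1 to 3, and nothing in the labels says whether these were separate cultures, so the p-values measure the spread between samples, which may be technical. The line stands for 1 clone in culture and the knockdown for 1 duplex. TPM is corrected for transcript length, so levels of different genes can be set side by side, but it keeps no depth, and the depth of each sample is unknown.

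Class I molecules present peptides cut from proteins inside the cell. The proteasome makes the peptides, the TAP transporter moves them into the endoplasmic reticulum (ER), ERAP1 trims them there, and tapasin, the product of *Tapbp*, helps to load them onto a heavy chain bound to beta-2 microglobulin. Interferons bring in the immunoproteasome, in which PSMB8, PSMB9 and PSMB10 take the places of the constitutive catalytic subunits PSMB5, PSMB6 and PSMB7. Neural stem cells and neurons are known for low class I levels, which interferon raises. Derlin-1, the protein of *Derl1*, sits in the ER membrane, takes part in the degradation of ER proteins, and is known from work on cytomegalovirus to serve in the removal of class I heavy chains from the ER.

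*Derl1* itself was listed at 122, 132 and 128 TPM in siControl 1 to 3 and at 44.9, 70.8 and 74.0 TPM in siDerl1 1 to 3. The groups did not overlap, and the lowest level was in siDerl1 1. The difference was −1.03 on the log2(TPM + 1) scale (SE 0.18), with a limma adjusted p of 0.497 in the fit without pairing and of 0.00884 (SE 0.11) with the sample number as a block. Across all genes, 0 of 10331 (0%) passed an adjusted p under 0.05 in the fit without pairing and 692 (6.7%) had an unadjusted p under 0.05, while 57 (0.552%) passed with the block. With the block but no intensity trend 0 genes passed, and *Derl1* had an adjusted p of 0.2295. Both samples numbered 1 stood apart from the other 4 over all genes, and the siRNA comparison of the class I genes is therefore also given without them.

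The samples had the markers of neural stem cells and nearly none of immune cells. All 7 neural stem cell markers were detected, with a summed level of 4070 to 5925 TPM in siControl and 4505 to 5914 TPM in siDerl1, lowest in each group in the sample numbered 1. Most of that sum was *Vim*, picked out after its values were seen, at 3008 to 5044 TPM. Of the 7, 2 had both samples numbered 1 below the other 4 and 1 had them above, and the list's median of samples 2 and 3 minus sample 1 was −0.21 in siControl and −0.14 in siDerl1 on the log2(TPM + 1) scale. The 12 myeloid and microglia markers summed to 8.61 to 14.5 TPM in siControl and 7.58 to 10.7 TPM in siDerl1, with *Cx3cr1*, *Tyrobp*, *C1qa* and *C1qb* at 0 in every sample. The 5 endothelial markers summed to at most 0.73 TPM, with 2 at 0 in every sample. The oligodendrocyte markers summed to 1069 to 1264 TPM in siControl and 1034 to 1462 TPM in siDerl1, highest in each group in the sample numbered 1, and *Mog* was at 0 throughout. The part of these differences in the results was not tested, and in bulk RNA fewer cells of a type and less RNA per cell cannot be told apart.

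The class I genes were measured at levels that spanned a wide range, and they varied more between sample numbers than between siControl and siDerl1. *B2m*, whose product is shared by all class I molecules, had the highest level, 541, 665 and 628 TPM in siControl 1 to 3 and 498, 770 and 759 TPM in siDerl1 1 to 3. The group means were 611 ± 63.9 and 676 ± 154 TPM (SD, n = 3 each), and the groups overlapped, since siDerl1 1 was the lowest of the 6 samples and siDerl1 2 and 3 the highest. The difference was 0.12 on the log2(TPM + 1) scale (SE 0.17, limma adjusted p = 0.934).

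Both chains of the peptide transporter were expressed, with the samples in a different order for each. *Tap1* was at 23.7, 45.0 and 44.1 TPM in siControl and at 17.1, 69.1 and 63.4 TPM in siDerl1. *Tap2* was at 26.7, 33.2 and 35.8 TPM in siControl and at 23.1, 32.3 and 33.6 TPM in siDerl1. Both genes were lowest in the samples numbered 1, but *Tap1* was above its siControl levels in siDerl1 2 and 3 while *Tap2* was just below the siControl sample of the same number. The fits without pairing gave 0.22 for *Tap1* (SE 0.52, limma adjusted p = 0.958) and −0.11 for *Tap2* (SE 0.17, limma adjusted p = 0.942). The TAP transporter needs both chains, and the ratio of *Tap1* to *Tap2* was 0.887, 1.36 and 1.23 in siControl and 0.739, 2.14 and 1.88 in siDerl1, below 1 only in the samples numbered 1.

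*Tapbp* had the pattern of *Tap1*. It was at 37.6, 78.9 and 82.7 TPM in siControl (mean 66.4 ± 25.0) and at 35.2, 116 and 111 TPM in siDerl1 (mean 87.4 ± 45.3), so that both samples numbered 1 were at a similar low level and siDerl1 2 and 3 were the highest. The difference was 0.29 (SE 0.50, limma adjusted p = 0.948), and with the sample number as a block its unadjusted p was 0.0276 (adjusted p = 0.254). *Erap1*, the peptidase that trims peptides in the ER, was at 15.2, 20.1 and 21.2 TPM in siControl and at 16.8, 23.55 and 24.5 TPM in siDerl1. Its level was above siControl in every pair of equal number, by 0.13, 0.22 and 0.20 on the log2(TPM + 1) scale, yet the groups overlapped (0.18, SE 0.18, limma adjusted p = 0.898).

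All 3 immunoproteasome subunits were detected in every sample, and no interferon is named among the treatments. *Psmb8*, the chymotrypsin-like subunit, was at 17.3, 35.1 and 41.1 TPM in siControl and at 11.5, 41.2 and 53.3 TPM in siDerl1. *Psmb9*, which lies next to *Tap1*, was at 59.95, 97.5 and 114 TPM in siControl and at 55.8, 138 and 122 TPM in siDerl1. *Psmb10*, the trypsin-like subunit, was at 58.6, 107 and 128 TPM in siControl and at 44.1, 129 and 146 TPM in siDerl1. In each of the 3 genes the samples numbered 1 were the lowest and siDerl1 1 the lowest of all. The group differences were 0.01 for *Psmb8* (SE 0.56, limma adjusted p = 0.998), 0.17 for *Psmb9* (SE 0.37, adjusted p = 0.953) and 0.02 for *Psmb10* (SE 0.48, adjusted p = 0.996).

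**Figure D1:**
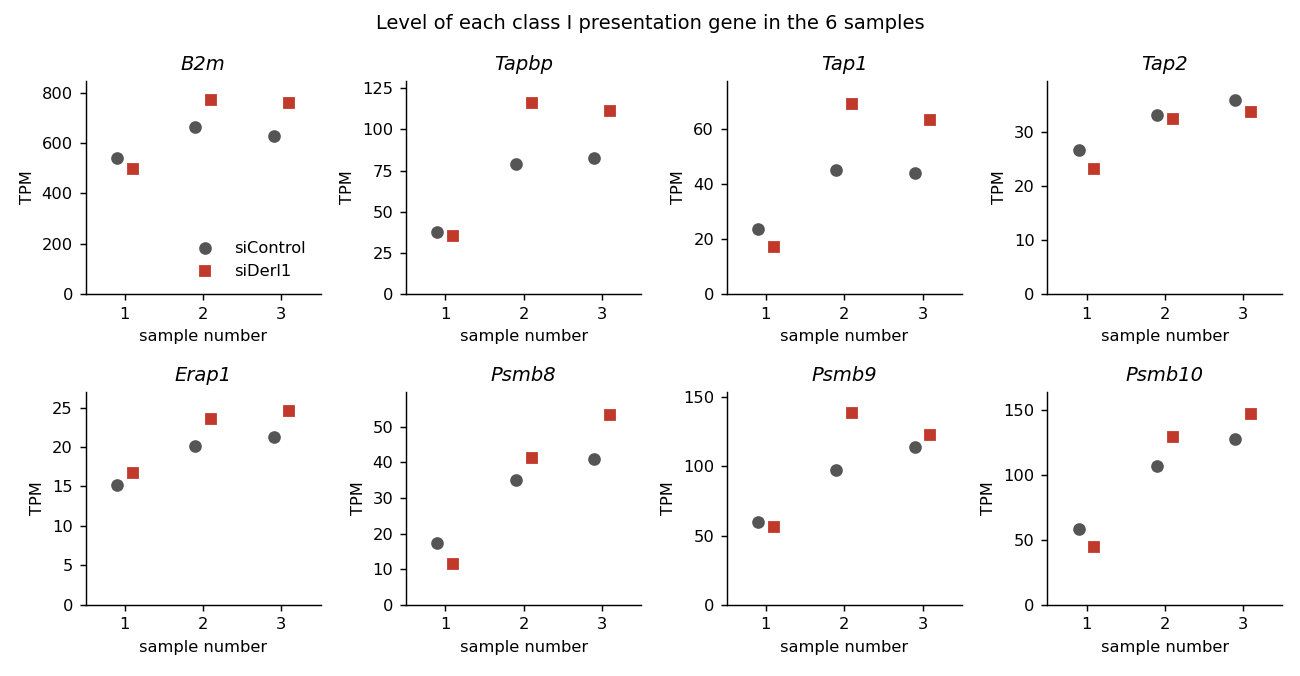
Level in TPM (vertical axis of each panel, from 0) of each class I gene tested, by sample number (horizontal axis), with 1 point per sample for siControl and siDerl1. In all 8 genes both samples numbered 1 lie below the other 4, and in *Tap1*, *Tapbp* and *B2m* siDerl1 lies above siControl for numbers 2 and 3 and below it for number 1.

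Over the 8 genes tested, 0 were called between siDerl1 and siControl in the fit without pairing, beside 0% of all genes, and 0 had an unadjusted p under 0.05. With the block 0 were called, beside 0.552% of all genes, and 1 had an unadjusted p under 0.05 and was higher, beside 6.84% of all genes tested in that direction and 8.88% in the other. None of the 8 had groups that did not overlap, which was seen in 13.6% of all genes. The median difference over the 8 was 0.14 on the log2(TPM + 1) scale, with 7 genes higher and 1 lower, and the median of all genes tested was −0.02. Its direction rested on single samples: the median of the 8 was −0.09 without siControl 1, −0.10 without siDerl1 2 and −0.03 without siDerl1 3, against 0.56 without siDerl1 1, and 0.21 and 0.26 without siControl 2 and 3. *Tap1*, *Psmb8* and *Psmb10* were below 0 in 3 of these 6 fits each. With 3 samples against 3 an exact two-sided permutation test of 1 gene cannot give a p below 0.1.

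The sample number set the levels apart more than the siRNA did. In 8 of the 8 genes both samples numbered 1 were below the other 4 samples, a pattern found in 17% of all genes. Within siControl the mean of samples 2 and 3 was above sample 1 by 2.2-fold for *Psmb8*, 2.15-fold for *Tapbp*, 2-fold for *Psmb10*, 1.88-fold for *Tap1*, 1.76-fold for *Psmb9*, 1.36-fold for *Erap1*, 1.29-fold for *Tap2* and 1.2-fold for *B2m*. Within siDerl1 the same ratios were larger, 4.11-fold for *Psmb8*, 3.88-fold for *Tap1*, 3.23-fold for *Tapbp*, 3.12-fold for *Psmb10* and 2.33-fold for *Psmb9*, and 1.43-fold to 1.53-fold for *Tap2*, *Erap1* and *B2m*. The median over the 8 genes was 0.84 on the log2(TPM + 1) scale in siControl and 1.41 in siDerl1, where all genes tested had medians of 0.02 and −0.01. The split by number was noticed in these data and carries no test.

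Taken by sample number, siDerl1 was below siControl in 7 of the 8 genes in pair 1 and above it in 7 of the 8 in each of pairs 2 and 3. The median difference was −0.16 in pair 1, 0.25 in pair 2 and 0.24 in pair 3 on the log2(TPM + 1) scale, where all genes tested had medians of 0.01, −0.03 and −0.03. *Tap1* differed by −0.45, 0.61 and 0.51 in the 3 pairs, the widest swing of the 8. *Psmb8* differed by −0.55, 0.23 and 0.37, and *Psmb10* by −0.40, 0.27 and 0.20. *Tapbp*, *B2m* and *Psmb9* were nearly level in pair 1, at −0.09, −0.12 and −0.10, and higher in pairs 2 and 3. *Tap2* was below siControl in all 3 pairs, by −0.20, −0.04 and −0.09, and *Erap1* above it in all 3. Thus 6 of the 8 were higher in pairs 2 and 3 and lower in pair 1, beside 8.41% of all genes, and 7 of the 8 were higher in pairs 2 and 3, beside 24.3%.

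**Figure D2:**
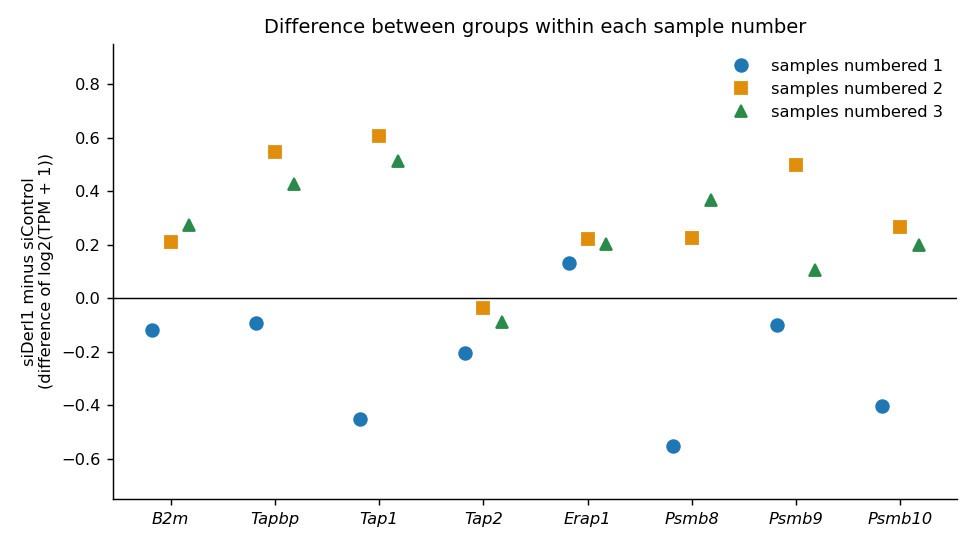
Difference of siDerl1 from siControl on the log2(TPM + 1) scale (vertical axis) for each class I gene tested, within samples of the same number, with 1 point per pair and a line at 0. Pair 1 lies below 0 in 7 of the 8 genes and pairs 2 and 3 above 0 in 7 of the 8, with *Tap1* spanning −0.45 to 0.61.

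The change of the siRNA difference with sample number was fitted as an interaction, the effect in samples 2 and 3 minus that in samples 1. It was chosen with results of these data known and rests on 2 residual degrees of freedom per gene. Each siRNA has only 1 sample numbered 1, so the residual spread comes from samples 2 and 3 alone. The SE and p-values of this fit therefore hold no spread between samples numbered 1. *Tap1* had the largest value, 1.01 on the log2(TPM + 1) scale (SE 0.16, limma adjusted p = 0.203). *Psmb8* followed at 0.85 (SE 0.26, adjusted p = 0.644), *Psmb10* at 0.63 (SE 0.18, adjusted p = 0.621) and *Tapbp* at 0.58 (SE 0.13, adjusted p = 0.477). The value for *B2m* was 0.36 (SE 0.10, adjusted p = 0.589) and for *Psmb9* 0.40 (SE 0.17, adjusted p = 0.785). *Tap2* at 0.14 and *Erap1* at 0.08 were within their standard errors of 0.18 and 0.20. *Derl1* itself had a value of 0.585, with differences of −1.42, −0.89 and −0.78 in pairs 1 to 3, so the knockdown also differed by number. None of the 8 passed the adjusted threshold, which 1 of all genes (0.00968%) did, and 5 of the 8 had an unadjusted p under 0.05 and a positive value, beside 2.78% of all genes.

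Without both samples numbered 1, 2 siDerl1 samples were set against 2 siControl samples. Those samples were left out because they stood apart in these same data. The p-values and calls of this fit, here and below, are therefore a description and no independent test. *Tapbp* then differed by 0.49 (SE 0.07, limma adjusted p = 0.0528) and *Tap1* by 0.56 (SE 0.09, adjusted p = 0.0551), both just above the threshold of 0.05 and so not called. *B2m* differed by 0.24 (SE 0.06, adjusted p = 0.199), *Psmb9* by 0.30 (SE 0.10, adjusted p = 0.338), *Psmb8* by 0.30 (SE 0.14) and *Psmb10* by 0.23 (SE 0.10). Thus 0 of the 8 were called, beside 35 genes (0.338%) of all tested, and 4 of the 8 had an unadjusted p under 0.05 and were higher, beside 4.55%. In 7 of the 8 both siDerl1 samples were above both siControl samples, beside 16.3% of all genes. The exception was *Tap2*, at −0.06 (SE 0.10, adjusted p = 0.848).

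The share of each catalytic site held by the immunoproteasome subunit was taken as its TPM over the sum with its constitutive counterpart. For *Psmb8* with *Psmb5* it was 5.32%, 10.6% and 13.5% in siControl and 4.28%, 12.4% and 15.3% in siDerl1. For *Psmb9* with *Psmb6* it was 17.0%, 24.2% and 24.6% in siControl and 18.2%, 31.0% and 28.3% in siDerl1. For *Psmb10* with *Psmb7* it was 14.6%, 22.6% and 25.4% in siControl and 11.7%, 26.0% and 27.5% in siDerl1. At each site most of the RNA was thus of the constitutive subunit, and the share was lower in both samples numbered 1 than in the other 4. Over the 3 sites together it was 12.6%, 19.8% and 22.2% in siControl (mean 18.2% ± 5.01) and 11.7%, 24.2% and 24.5% in siDerl1 (mean 20.1% ± 7.31), so the group means differed by less than the spread within either group.

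**Figure D3:**
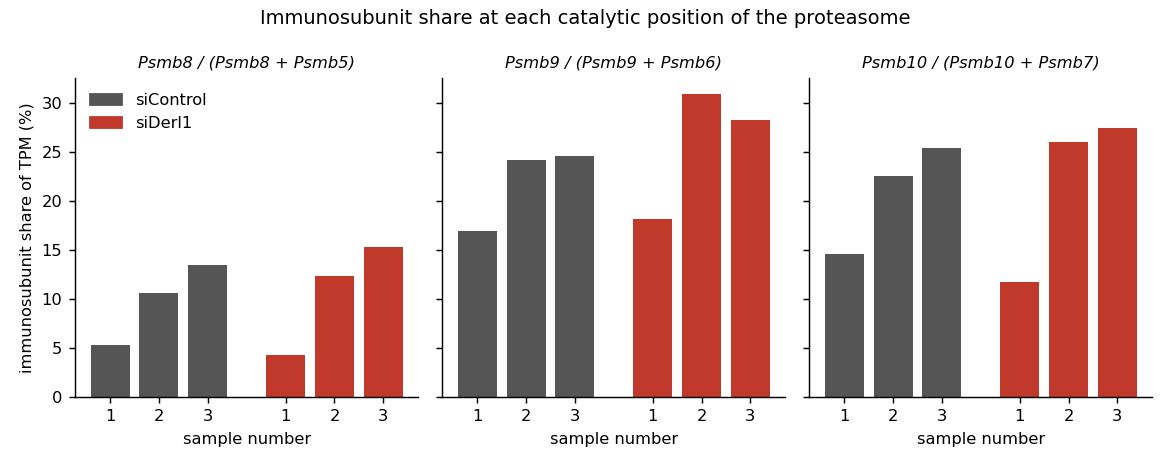
Share in percent (vertical axis, from 0) of the TPM at each catalytic site that came from the immunoproteasome subunit, for each sample (siControl and siDerl1 1 to 3). The shares of *Psmb8*, *Psmb9* and *Psmb10* are lowest in the samples numbered 1, and *Psmb8* stays between 4.28% and 15.3%.

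The constitutive subunits were at higher levels than the immunoproteasome subunits. *Psmb5* was at 308, 297 and 264 TPM in siControl and at 257, 291 and 296 TPM in siDerl1. *Psmb6* was at 293, 306 and 348 TPM in siControl and at 250, 308 and 310 TPM in siDerl1. *Psmb7* was at 342, 367 and 375 TPM in siControl and at 333, 366 and 386 TPM in siDerl1. Their differences were −0.04, −0.13 and 0.00 on the log2(TPM + 1) scale, and 0 of the 3 were called. In 2 of the 3, *Psmb6* and *Psmb7*, both samples numbered 1 were below the other 4. Of the 11 other subunits of the 20S core, 2 were higher and 9 lower (median −0.05), 0 were called in either fit, and 0 had both samples numbered 1 below the other 4. With the block, *Psma3* at −0.16 (SE 0.06, limma adjusted p = 0.243) and *Psma1* at −0.13 (SE 0.06, adjusted p = 0.288) had the smallest p of these, followed by *Psma6* at −0.11 (SE 0.05, adjusted p = 0.307).

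Of the proteasome activators, those of the interferon-inducible PA28 cap had the number pattern. *Psme1* was at 167, 214 and 217 TPM in siControl and at 145, 234 and 240 TPM in siDerl1. *Psme2* was at 91.7, 120 and 129 TPM in siControl and at 75.7, 152 and 166 TPM in siDerl1, with an interaction of 0.62 (adjusted p = 0.423). In both, the samples numbered 1 were the lowest and siDerl1 2 and 3 the highest. *Psme3*, the nuclear activator PA28gamma, was at 154, 158 and 152 TPM in siControl and at 133, 135 and 143 TPM in siDerl1, with groups that did not overlap and a difference of −0.17 (SE 0.06, adjusted p = 0.704, 0.188 with the block). The assembly factor *Pomp* was at 542, 580 and 652 TPM in siControl and at 543, 590 and 619 TPM in siDerl1. Over the 8 activators and assembly factors tested, 3 were higher and 5 lower, 0 were called, and in 5 both samples numbered 1 were the lowest.

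**Figure D4:**
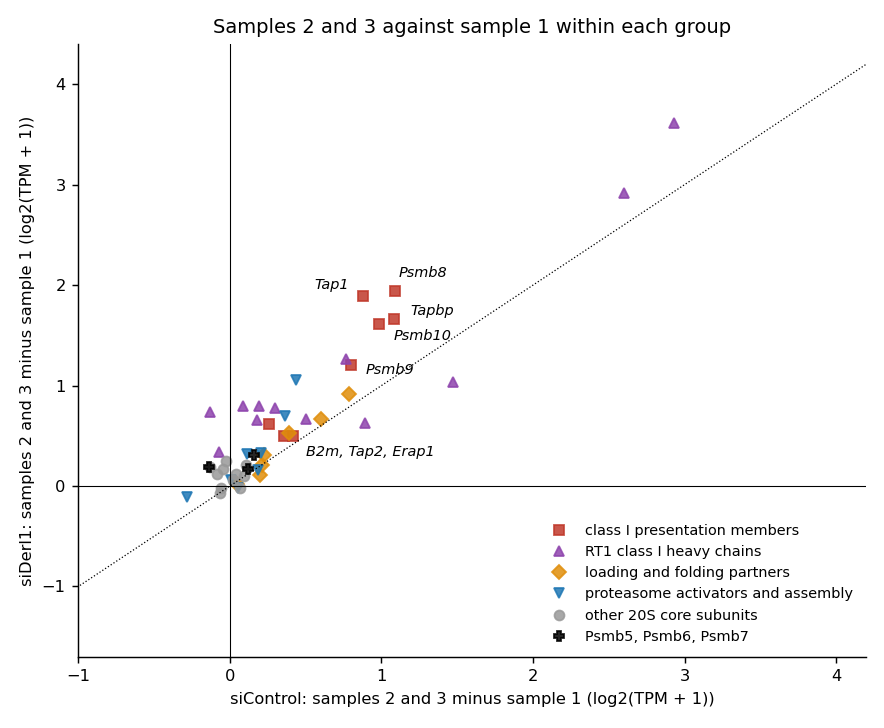
Mean of samples 2 and 3 minus sample 1 on the log2(TPM + 1) scale, in siControl (horizontal axis) and in siDerl1 (vertical axis), with 1 point per gene and a dotted line of equality; genes at 0 in any sample are left out, among them 5 of the 17 tested class I heavy chains. The class I genes lie above 0 on both axes and above the line, *Psmb8* at 1.09 and 1.94 and *Tap1* at 0.88 and 1.89, while the other 20S subunits lie near 0.

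The heavy chains of rat class I are encoded by the RT1 genes, close paralogs whose reads may be split between rows, so single rows are uncertain. Of 38 class I rows, 16 were at 0 in every sample and 17 were tested. Their summed level was 243, 394 and 336 TPM in siControl (mean 324 ± 76.5) and 220, 459 and 470 TPM in siDerl1 (mean 383 ± 141). Like *B2m*, the sum was lowest in siDerl1 1 and above the other samples in siDerl1 2 and 3, and samples 2 and 3 exceeded sample 1 by 1.51-fold in siControl and 2.11-fold in siDerl1. By pair, the sum in siDerl1 was 0.908, 1.16 and 1.4 times that in siControl. In pair 1 most single rows tested went the other way from the sum, with 10 higher and 6 lower and a median of 0.05 on the log2(TPM + 1) scale, and the rows furthest below siControl in TPM were *RT1-CE16* and *RT1-CE11* (17.2 TPM in siControl 1 and 5.15 TPM in siDerl1 1).

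*RT1-CE16* held the most, 107, 129 and 116 TPM in siControl and 87.9, 152 and 155 TPM in siDerl1. *RT1-A2* was at 23.9, 36.2 and 32.4 TPM in siControl and at 25.5, 42.5 and 39.9 TPM in siDerl1, and *RT1-N3* at 9.24, 16.0 and 16.8 TPM in siControl and at 10.4, 27.0 and 25.8 TPM in siDerl1. *RT1-S3* had the widest gap by number of the tested rows above 0 in every sample, at 2.45, 23.6 and 27.0 TPM in siControl and at 2.69, 44.5 and 43.8 TPM in siDerl1. Without both samples numbered 1 it rose by 0.78 (SE 0.11, limma adjusted p = 0.0402), the 1 heavy chain row called in that fit. In the fit over all 6 samples it was not called (0.55, SE 1.16, adjusted p = 0.953).

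Of the 17 rows tested, 12 were higher and 5 lower, with a median of 0.32 on the log2(TPM + 1) scale against −0.02 for all genes. In the fit without pairing 0 were called and 0 of the 17 had an unadjusted p under 0.05, beside 6.7% of all genes. With the block 0 were called, and 10 of the 17 had an unadjusted p under 0.05 and were higher, beside 6.84% of all genes, while 1 was lower, beside 8.88%. Of the 17 rows, 5 were at 0 in some sample, and *RT1-CE7* and *RT1-T24-1* of these were among the 10. *RT1-CE12*, also among the 10, stayed between 0.3 and 2.78 TPM. Since paralogs may share reads, the rows are not separate observations, and the share of all genes is no like measure for them. In 7 of the 17 both samples numbered 1 were the lowest. Some rows switched between 0 and far higher values: *RT1-CE7* was at 0, 34.2 and 27.5 TPM in siControl and at 11.3, 43.8 and 31.1 TPM in siDerl1, and *RT1-Cl* at 0, 40.0 and 0.06 TPM in siControl and at 0, 0 and 24.8 TPM in siDerl1. A value of 0 in such rows is only the listed estimate.

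The general chaperones that class I shares with other ER clients were mostly lower in siDerl1, by small amounts. *Calr*, a lectin chaperone of the loading complex, was at 693, 900 and 917 TPM in siControl and at 667, 922 and 999.65 TPM in siDerl1. *Canx*, which holds newly made heavy chains, was at 490, 513 and 500 TPM in siControl and at 477, 487 and 480 TPM in siDerl1. *Pdia3*, the oxidoreductase bound to tapasin, was lower in siDerl1 in every pair, at 439, 526 and 566 TPM against 543, 635 and 636 TPM in siControl (−0.25, limma adjusted p = 0.740, and 0.0565 with the block). *Hspa5* differed by −0.15 and *Sec61a1* by −0.12, with adjusted p of 0.176 and 0.252 with the block. *Tapbpl*, a peptide editor related to tapasin, was at 26.0, 41.9 and 49.8 TPM in siControl and at 23.6, 42.7 and 48.5 TPM in siDerl1, low in the samples numbered 1 but nearly equal between the siRNAs. Over the 7 partners, 1 was higher and 6 lower (median −0.12, against −0.02 for all genes). In either fit 0 were called, and in 4 both samples numbered 1 were the lowest. Without pairing 0 had an unadjusted p under 0.05, beside 6.7% of all genes. With the block 3 had one and were lower, beside 8.88% of all genes, and 0 were higher, beside 6.84%.

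The invariant chain *Cd74* was at or near 0, while proteases and exchange chains of the class II pathway were detected. Besides *Cd74*, the class II transactivator *Ciita* was at 0 in 5 samples and at 0.04 TPM in siDerl1 3; it was picked out after its values were seen. Of 10 RT1 class II rows, 2 passed the filter. These were the peptide exchange chains *RT1-DMa*, at 15.8, 17.0 and 20.2 TPM in siControl and 22.0, 19.8 and 20.5 TPM in siDerl1, and *RT1-DMb*, at 5.03, 6.25 and 9.69 TPM in siControl and 4.67, 8.99 and 9.51 TPM in siDerl1. Neither was called. The lysosomal protease *Ctsl* was at 149, 151 and 126 TPM in siControl and at 191, 171 and 162 TPM in siDerl1, with groups that did not overlap (0.30, SE 0.09, limma adjusted p = 0.704, and 0.0631 with the block). The thiol reductase *Ifi30* differed by −0.11 and the protease *Ctss* by 0.20, and 0 of the 4 class II pathway genes tested were called.

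Among 15 regulators of these genes, 9 were higher in siDerl1 and 6 lower, with a median of 0.03 against −0.02 for all genes, and 0 were called in either fit. *Irf1*, which acts on class I promoters, was at 30.8, 40.4 and 46.6 TPM in siControl and at 32.1, 49.7 and 54.4 TPM in siDerl1 (0.19, limma adjusted p = 0.296 with the block). *Rfxap*, a part of the RFX complex that binds MHC promoters, went the other way by number, at 59.0, 47.2 and 48.6 TPM in siControl and at 63.8, 58.4 and 60.7 TPM in siDerl1 (0.24, adjusted p = 0.174 with the block). In 7 of the 15 both samples numbered 1 were below the other 4 and in 2 above them. Without both samples numbered 1, 1 of the 15 was called, beside 0.338% of all genes, and 5 had an unadjusted p under 0.05 and were higher, beside 4.55%.

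The genes closest in profile to the class I genes were sought among 8267 genes with a mean of at least 10 TPM, by the root mean square distance of each gene's standardised log2(TPM + 1) values over the 6 samples from the mean profile of the 8 class I genes. *Trim25*, a ubiquitin ligase of the RIG-I pathway, was the closest, at a distance of 0.0599, with 6.63, 15.1 and 17.3 TPM in siControl and 5.67, 20.1 and 21.1 TPM in siDerl1. The ubiquitin ligase *Rnf114* followed at 0.0818, the ubiquitin-like modifier *Isg15* at 0.0877, the vesicle transport factor *Scfd1* at 0.0957 and the chaperone *Rtp4* at 0.0959. *Isg15* had the widest range of these, at 10.2, 161 and 158 TPM in siControl and 4.75, 326 and 319 TPM in siDerl1. Among the class I genes themselves the distance ran from 0.105 for *Tapbp* to 0.364 for *Tap2*.

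The promoters are shown because most of these genes moved together by sample number. RefSeq promoter sequences (assembly GRCr8, 250 bases before to 50 after each start) were matched by symbol for 8 of the 10 genes; those of *Erap1* and *Nlrc5* were not used here. The reads had been mapped to rn6, so the positions below belong to GRCr8 alone. On both strands, 3 kinds of interferon or inflammatory element and the CCAAT box were searched. They were the interferon-stimulated response element (ISRE, GAAANNGAAA), the gamma-activated site (GAS, TTCNNNGAA) and the NF-kB consensus. In 7 genes the stretch from 160 bases before to 10 bases after the start is given 5′ to 3′ on the gene's strand, with matches to ISRE, GAS or the NF-kB consensus in capitals.
B2m, chr3:129549170-129549339, forward strand: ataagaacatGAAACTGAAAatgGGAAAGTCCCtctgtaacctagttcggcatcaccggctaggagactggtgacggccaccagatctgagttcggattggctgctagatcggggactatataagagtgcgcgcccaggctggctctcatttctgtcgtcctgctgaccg
Tap1, chr20:4668534-4668703, reverse strand: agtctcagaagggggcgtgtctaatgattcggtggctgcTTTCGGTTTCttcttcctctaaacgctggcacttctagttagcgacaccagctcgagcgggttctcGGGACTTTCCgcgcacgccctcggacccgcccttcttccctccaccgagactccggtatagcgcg
Tap2, chr20:4652287-4652456, reverse strand: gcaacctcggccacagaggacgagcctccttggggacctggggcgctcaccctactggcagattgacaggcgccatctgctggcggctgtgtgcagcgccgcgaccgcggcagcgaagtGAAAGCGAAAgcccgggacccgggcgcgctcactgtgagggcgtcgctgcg
Tapbp, chr20:4967868-4968037, reverse strand: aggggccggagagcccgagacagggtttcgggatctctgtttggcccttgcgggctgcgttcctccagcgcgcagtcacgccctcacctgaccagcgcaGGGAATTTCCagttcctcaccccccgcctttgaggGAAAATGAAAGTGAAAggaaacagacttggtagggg
Psmb8, chr20:4657022-4657191, reverse strand: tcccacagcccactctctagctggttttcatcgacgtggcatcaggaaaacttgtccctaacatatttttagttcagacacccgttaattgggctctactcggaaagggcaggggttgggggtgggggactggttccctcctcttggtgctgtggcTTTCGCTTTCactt
Psmb9, chr20:4668840-4669009, forward strand: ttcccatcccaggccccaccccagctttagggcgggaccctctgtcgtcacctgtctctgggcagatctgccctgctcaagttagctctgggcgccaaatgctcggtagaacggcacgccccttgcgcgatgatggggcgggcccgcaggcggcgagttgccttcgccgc
Psmb10, chr19:50743283-50743452, reverse strand: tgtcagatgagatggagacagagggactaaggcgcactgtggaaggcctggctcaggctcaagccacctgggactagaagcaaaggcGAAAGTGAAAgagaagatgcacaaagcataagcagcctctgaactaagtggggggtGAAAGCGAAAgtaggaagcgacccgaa

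An ISRE was found in 6 of the 8 promoters, those of *B2m*, *Tap1*, *Tap2*, *Tapbp*, *Psmb8* and *Psmb10*, beside 3.92% of all 33469 promoters of 300 bases. *Tapbp* held 2 overlapping matches, from −26 to −17 and from −20 to −11 relative to the start, and *Psmb10* held 2 separate ones, from −73 to −64 and from −17 to −8. In *Psmb8* the match ran across the start, from −4 to 5. The NF-kB consensus was found in 4 of the 8 (*B2m*, *Tap1*, *Tapbp* and *Cd74*), beside 7.51% of all promoters, and in *B2m* it ran from −137 to −128, close behind the ISRE from −150 to −141. The GAS was found in 1 of the 8, *Psmb8*, from −245 to −237, beside 8.87%, and CCAAT in 4 of the 8, beside 37.5%. The 3 constitutive counterparts held no ISRE in this window. *Tap2*, with an ISRE from −41 to −32, was lower in siDerl1 in all 3 pairs. *Psmb9*, with none in this window, was higher in pairs 2 and 3. The *Tap1* match, from −121 to −112, lies between the starts of *Tap1* and *Psmb9*, outside the *Psmb9* window. Whether any match bears on the levels was not tested. A match of letters is a description and not a site shown to be bound.

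On chromosome 20 *Tap2*, *Psmb8*, *Tap1* and *Psmb9* are neighbours in that order in GRCr8, with *RT1-DOb* on one side and *RT1-DMb* on the other. *Tap1* and *Psmb9* lie head to head on opposite strands, with starts 457 bases apart, and their promoter windows share 44 bases. Their TPM did not keep a fixed ratio, *Psmb9* over *Tap1* being 2.53, 2.17 and 2.58 in siControl and 3.27, 2.0 and 1.93 in siDerl1. *Tap2* and *Psmb8*, also neighbours, differed in how far samples 2 and 3 exceeded sample 1, by 1.29-fold and 2.2-fold in siControl and by 1.43-fold and 4.11-fold in siDerl1.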

How the data were processed

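Rat NSC samples were grouped as siControl and siDerl1, 3 each, from their titles. Libraries were strand-specific. Per the labels, the authors used Trimmomatic 0.39, STAR 2.7.3a with rn6, RSEM 1.3.2 and edgeR 3.28.1. The deposited files give TPM to 2 decimals, scaled to one total per sample, so read depth is not known and counting error was not estimated.

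Differences were fitted with limma 3.58.1 (R 4.3.3) on log2(TPM + 1), using eBayes with trend, for 10331 genes whose mean TPM reached 1, and p-values were adjusted by Benjamini-Hochberg (threshold 0.05). A fold change on this scale understates that of low genes. Shares, sums and motif matches were computed with pandas 2.3.3 in Python 3.11.15. Promoter sequences are from RefSeq (GRCr8).

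The sample numbers were checked as a pairing. Deviations from the group means correlated across genes between same-numbered samples at 0.697, 0.353 and 0.507, while other pairs gave −0.591 to −0.409 where number 1 was involved and 0.248 and 0.345 otherwise. The number was therefore also fitted as a block, printed where it changed a call or bears on a named gene. No 2 samples held equal values in more than 0.596% of expressed genes.

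Alternatives tried were the block, leaving samples out, scaling by median of ratios, a fit without trend, another pseudocount (0.1), a higher mean TPM limit (5) and none. Named genes were all members, the 3 with the smallest block p of each other list and any called there, and the 5 closest in profile. Any gene of the loading partner, constitutive subunit, activator and RT1 lists could be named. Members, lists and contrasts were chosen with earlier results of these data known. *Nlrc5*, *Psmg3*, *Ifnar2* and *Nrdc* were not analysed here. Some genes selected by that rule are not reported here.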

Additional observations from a re-analysis of the deposited data

How the results depend on the processing

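Counting error could not be given, since the depth is unknown. Over all genes, 0 were called without the block, 57 with it, 2 with it and no filter on low values, 0 with it and no trend, and 35 without both samples numbered 1. *Derl1* was called with the replicate block (−1.03, adjusted p = 0.00884) and without both samples numbered 1 (−0.83, adjusted p = 0.00545), but not with the block and no filter (adjusted p = 0.104) or the block and no trend (adjusted p = 0.2295). Of the interferon receptors and kinases, 1 gene (*Usp18*) was called with the block. The block changed no other call among the members and lists but that of *Gfap*, a neural stem cell marker. Neither *Usp18* nor *Gfap* was called with the block and no trend.

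Leaving out 1 sample at a time left 0 members and 0 genes called, and *Derl1* between −1.16 and −0.80. The members' median ran from −0.10 without siDerl1 2 to 0.56 without siDerl1 1. The range was 0.01 to 0.33 for *B2m*, −0.12 to 0.85 for *Tap1*, −0.23 to 0.0551 for *Tap2*, −0.0678 to 0.85 for *Tapbp*, −0.40 to 0.66 for *Psmb8*, −0.10 to 0.57 for *Psmb9*, −0.31 to 0.56 for *Psmb10* and 0.05 to 0.35 for *Erap1*, each highest without siDerl1 1. Over the members, 107 of 120 values in 15 settings kept direction and call, and the lowest adjusted p was 0.0528. The other 13 reversed, all with 1 sample left out. Changing the filter, the trend or the block leaves the difference itself unchanged, so only the call could move in those settings. All 40 interaction values in 5 settings kept direction and call, with a lowest adjusted p of 0.157. Here too the filter and the trend leave the value itself unchanged. No sample was left out in these settings, so how far the interaction rests on single samples was not tested.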

Other observations

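Of the 9 interferon receptor and kinase genes tested, 3 were higher in siDerl1 and 6 lower. *Usp18*, which restrains the type I interferon receptor, was at 0.81, 78.1 and 67.5 TPM in siControl and at 2.21, 171 and 150 TPM in siDerl1, higher in all 3 pairs. It differed by 1.03 on the log2(TPM + 1) scale, with a limma adjusted p of 0.953 without the block and of 0.00575 with it. With the block and no intensity trend it was not called, and without both samples numbered 1 it was (adjusted p = 0.00545). The receptor chain *Ifnar1* was level, at 91.2, 100 and 102 TPM in siControl and 93.2, 94.3 and 90.1 TPM in siDerl1. The feedback inhibitor *Socs3* went the other way by number, at 31.9, 22.8 and 16.8 TPM in siControl and at 34.7, 31.1 and 18.8 TPM in siDerl1.

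Of the 7 other peptidases that trim class I peptides, 2 were higher in siDerl1 and 5 lower, and 0 were called in either limma fit. *Dpp9* had groups that did not overlap, at 36.5, 33.4 and 37.65 TPM in siControl and 30.8, 29.6 and 32.3 TPM in siDerl1 (−0.21, adjusted p = 0.264 with the block). *Tpp2* differed by −0.10 and *Npepps* by −0.05.

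Among the neural stem cell markers, *Gfap*, an intermediate filament of astrocytes and quiescent NSCs, was at 47.0, 27.7 and 28.9 TPM in siControl and at 66.3, 47.5 and 45.3 TPM in siDerl1. It was higher in all 3 pairs (0.62, limma adjusted p = 0.704 without the block and 0.0219 with it), was not called with the block and no intensity trend, and was called without both samples numbered 1 (adjusted p = 0.0406). The intermediate filament gene *Nes* was at 137, 125 and 113 TPM in siControl and at 111, 101 and 99.4 TPM in siDerl1, with groups that did not overlap (−0.26, adjusted p = 0.0899 with the block), and the glutamate transporter *Slc1a3* differed by −0.15. *Gfap* was highest in each group in the sample numbered 1, where the class I genes were lowest.

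Of 5 neuron markers 3 were tested, and 0 were called in either limma fit. *Syt1* differed by −0.34, *Dcx* by −0.42 and *Tubb3* by 0.21. Of the oligodendrocyte markers tested, *Mbp* differed by 0.17 and *Sox10* by 0.02, and of the myeloid markers *Laptm5* by −0.47, *Cd68* by −0.29 and *P2ry12* by 0.19, with 0 called.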
